A study of Mus musculus with 18 samples.

Results

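The genes described are 10 genes of bile acid synthesis and its control by FXR and SHP in mouse liver. They were chosen by name as the textbook enzymes and the receptor pair of this pathway, with earlier results of these data known. All 10 were found among the 54532 genes of the deposited table. Of these, 9 had a mean of at least 1 FPKM (fragments per kilobase, relative to the size of the library) over the 18 mice and were tested with the 10216 genes that passed this filter. The tenth, Hsd3b7, averaged 0.08 FPKM and was not tested.

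Liver RNA came from 18 male C57BL/6J mice (C57BL/6 in the labels), 6 weeks old when housed, in 3 groups of 6. The normal controls (NC) ate a standard chow diet, and the HFD control mice (HFD) ate a high-fat diet and received saline. The SZ-A mice ate the same high-fat diet for 14 weeks and then, still on that diet, received SZ-A, the alkaloids of Ramulus Mori (Sangzhi), the twig of mulberry. The labels give 8 weeks of SZ-A and the study's methods a shorter time, and the dose and route of the sequenced mice are not given in the sources used here. No mouse carried a transgene or deletion by the labels, and all were fasted overnight before the liver was taken, so the levels are those of fasted mice. NC6 is titled as a normal control but labelled as fed the high-fat diet, and it was kept in NC. Of the 2025 genes called between HFD and the other NC mice, NC6 lay nearer the NC mice for 67.1%, the lowest share among the NC mice, where the others had 75.3% to 88.6%. For comparisons with NC, the calls among the 10 genes and the gene lists are given with and without NC6.

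Bile acids are made from cholesterol in hepatocytes by a classic pathway that Cyp7a1 opens and an alternative pathway that Cyp27a1 and Cyp7b1 open. Cyp8b1 adds the hydroxyl group that makes cholic acid, and so sets the ratio of cholic acid to the other primary bile acids. Bile acids activate the nuclear receptor FXR (Nr1h4), which induces SHP (Nr0b2), a receptor without a DNA-binding domain that represses Cyp7a1 and Cyp8b1 through partners such as LRH-1 (Nr5a2) and HNF4A (Hnf4a). The last steps attach coenzyme A (Slc27a5) and taurine or glycine (Baat).

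The promoters of Cyp8b1, the gene with the smallest p-value of this group, and of Nr0b2, its repressor, are printed because they hold short motifs of the partner receptors. The bases are the 250 before the start of each gene on its own strand, from RefSeq (GRCm38.p6), at chr9:121916306-121916555 (minus strand) for Cyp8b1 and chr4:133553126-133553375 (plus strand) for Nr0b2. Promoters were found for 6 of the 10 genes. Capitals mark the matched motifs.
Cyp8b1: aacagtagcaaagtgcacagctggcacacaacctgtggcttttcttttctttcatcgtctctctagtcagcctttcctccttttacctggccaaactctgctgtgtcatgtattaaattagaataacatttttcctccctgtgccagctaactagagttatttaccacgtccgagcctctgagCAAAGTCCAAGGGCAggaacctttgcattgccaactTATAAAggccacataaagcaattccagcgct
Nr0b2: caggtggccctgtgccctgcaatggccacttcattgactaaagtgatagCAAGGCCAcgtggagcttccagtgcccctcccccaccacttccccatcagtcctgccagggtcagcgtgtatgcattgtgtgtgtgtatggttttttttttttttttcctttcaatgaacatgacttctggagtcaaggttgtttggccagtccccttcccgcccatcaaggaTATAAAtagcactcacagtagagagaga

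In the Cyp8b1 promoter an LRH-1 type motif (CAAGGNCA) began 60 bases before the gene start and an HNF4 type motif (CAAAGTCCA) began 67 bases before it, so that the pair overlap. The Nr0b2 promoter held the LRH-1 type motif 201 bases before its start and no HNF4 type motif. On either strand the LRH-1 type motif was found in 5.53% of the 32851 promoters searched over the same length, and the HNF4 type motif in 0.384%. Both promoters also held TATAAA, at 31 bases before the start in Cyp8b1 and at 28 in Nr0b2, as did 12.4% of all promoters. The nuclear receptor half-site AGGTCA, found in 14.0% of promoters, was in neither of them, nor was its exact inverted repeat spaced by a single base. Only 2 of the 32851 promoters held that exact repeat, so its absence here says little. Looser forms of it, and bases farther from the start, were not searched. These matches describe letters in a window and show no binding.

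Cyp8b1 lies on chromosome 9 (GRCm38, 121914356 to 121916305, minus strand), and its 1950 exon bases equal its span, so the gene has no intron. Cyp7a1 lies on chromosome 4 (6265612 to 6275633, minus strand), the chromosome that also carries Nr0b2 (133553376 to 133556536, plus strand). For all 10 genes the span and the exon length in the table are those of the GENCODE vM21 annotation. Fragments on genes, worked back from the FPKM, totalled 17163191 to 20493907 per mouse. At that depth Cyp7a1, the lowest of the 9 tested genes, still had 358 to 4475 fragments in a mouse, and no other tested gene had under 105.

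In FPKM, a level per length, the means over the 18 mice ran from 371 for Slc27a5 through 306 for Cyp8b1, 165 for Cyp27a1, 135 for Baat, 83.4 for Cyp7b1, 49.3 for Nr1h4, 47.0 for Akr1d1 and 32.1 for Nr0b2 to 22.0 for Cyp7a1. This order was not the same in each group. Cyp8b1 was above Slc27a5 in 6 of 6 NC mice, with ranges that did not overlap, and below it in 6 of 6 HFD and 6 of 6 SZ-A mice. Among the NC mice the ranges of Cyp27a1 and Baat overlapped, as did each neighbouring pair in the run Cyp7b1, Nr1h4, Nr0b2, Akr1d1 and Cyp7a1. Overlapping ranges do not show that these neighbours were equal, and their order within each mouse was not compared.

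**Figure D1:**
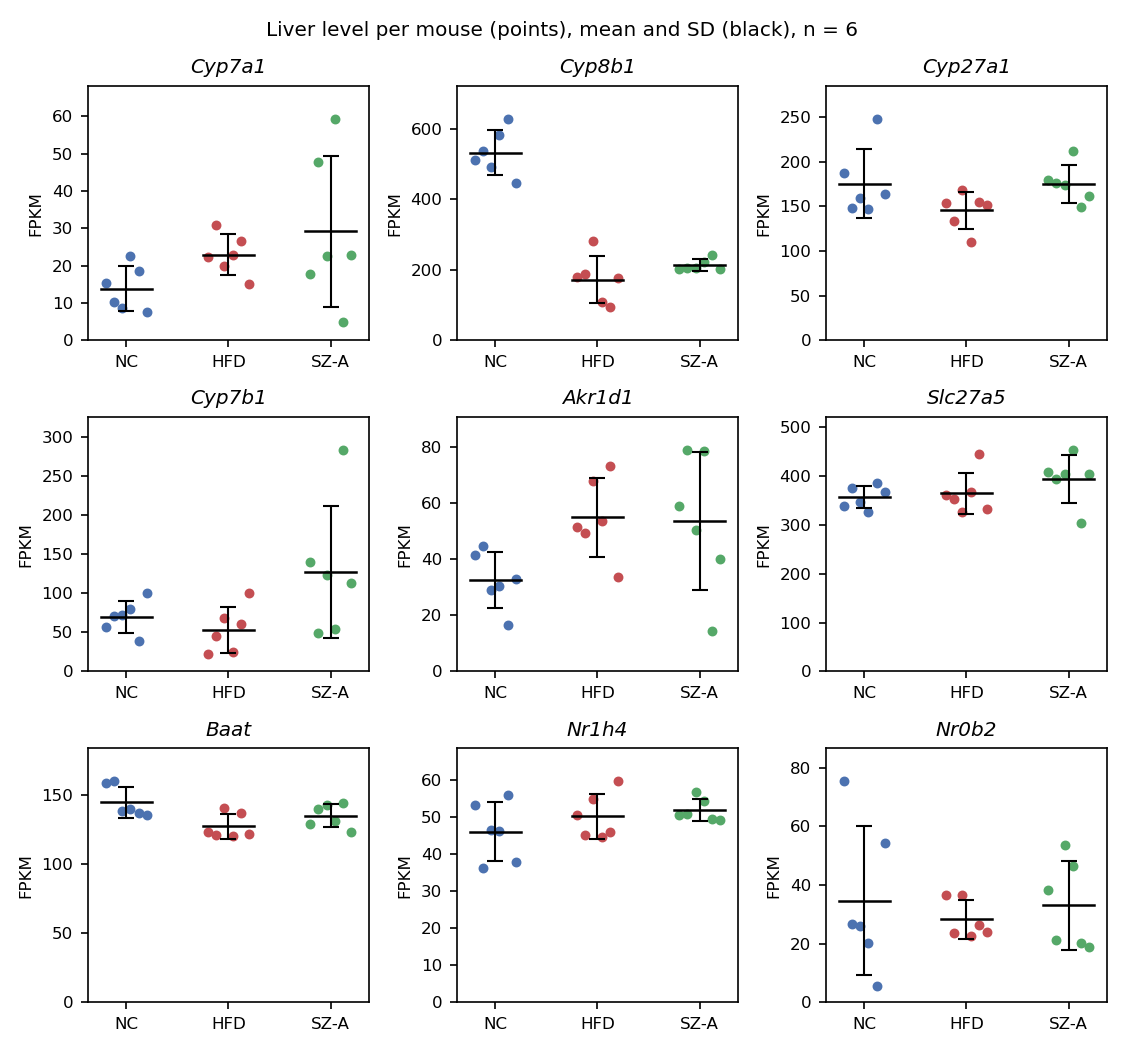
FPKM of the 9 tested genes in each mouse, by group, with the mean and SD of 6 mice in black. The 6 HFD and 6 SZ-A mice all lie below the 6 NC mice for Cyp8b1, and the SZ-A mice spread widely for Cyp7a1, Cyp7b1 and Akr1d1.

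The high-fat diet was compared with chow first. Cyp8b1 fell to 0.305 times its NC level in HFD mice, and Cyp7a1 and Akr1d1 rose 1.74-fold and 1.71-fold. A gene was called where its limma p, adjusted by Benjamini-Hochberg over all genes tested, was under 0.05 and its fold change over 1.2. These 3 of the 9 tested genes were called, beside 20.2% of all genes tested, with 2 higher beside 10.7% and 1 lower beside 9.49%. The receptors Nr1h4 and Nr0b2 were not called, nor were Cyp27a1, Cyp7b1, Slc27a5 and Baat. Of the 9 genes, 1 had groups that did not overlap, beside 10.5% of all genes. Without NC6, 2 of the 9 were called, Cyp8b1 and Akr1d1. Dividing by the summed FPKM of each mouse moves the median log2 fold change of all genes from -0.033 to 0.15, and the calls over all genes from 1092 higher and 970 lower to 2100 higher and 334 lower. The same 3 genes were called on that scale, each in the same direction.

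Of the classic pathway, Cyp7a1, the rate-limiting enzyme, ranged from 7.74 to 22.5 FPKM in NC mice (median 12.8) and from 15.1 to 30.9 in HFD mice (median 22.5). The groups overlapped, but 6 of 6 HFD mice were above the NC mean. The means were 13.9 ± 5.93 and 22.9 ± 5.46 (SD, n = 6), a log2 fold change of 0.80 (SE 0.26, limma adjusted p = 0.0428). Without NC6, the lowest NC mouse, the log2 fold change was 0.65 and the adjusted p 0.0803, so this call was lost. It was also lost without NC1, NC2, NC3 or any of HFD1 to HFD5, with adjusted p of 0.051 to 0.0915 and a log2 fold change of 0.69 to 0.85.

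Cyp8b1, the enzyme that commits intermediates to cholic acid, ranged from 447 to 627 FPKM in NC mice (median 524) and from 95.5 to 281 in HFD mice (median 178). No HFD mouse reached the lowest NC mouse, NC6, and HFD4 and HFD5 were the lowest of all 18. The means were 532 ± 64.4 and 172 ± 66.4 (SD, n = 6), a log2 fold change of -1.71 (SE 0.22, limma adjusted p = 0.00025). Its p-value ranked 99 among the 10216 genes. Without NC6 the log2 fold change was -1.76, with an adjusted p of 0.000516.

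The levels of Cyp8b1 and Cyp7a1 in the same liver were also set as a ratio, which is free of the scaling of a library. Cyp8b1 alone separated NC from HFD mice, so this ratio does not show by itself that Cyp7a1 rose. Cyp8b1 over Cyp7a1, as a ratio of FPKM, ranged from 25.8 to 57.7 in NC mice (median 43.0) and from 3.58 to 14.1 in HFD mice (median 7.10). The groups did not overlap, and NC6 had the highest ratio of all. In SZ-A mice the ratio ranged from 3.74 to 49.5 (median 8.95), and only SZ-A5 was in the NC range. SZ-A5 had a Cyp8b1 of 243 FPKM, the highest of its group, and a Cyp7a1 of 4.91 FPKM, the lowest of all 18 mice. Cyp8b1 over Cyp27a1 did not overlap between NC (2.53 to 3.94) and HFD mice (0.618 to 1.66) either, so such a separation was not particular to Cyp7a1. These ratios were computed as a description, with no test.

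**Figure D2:**
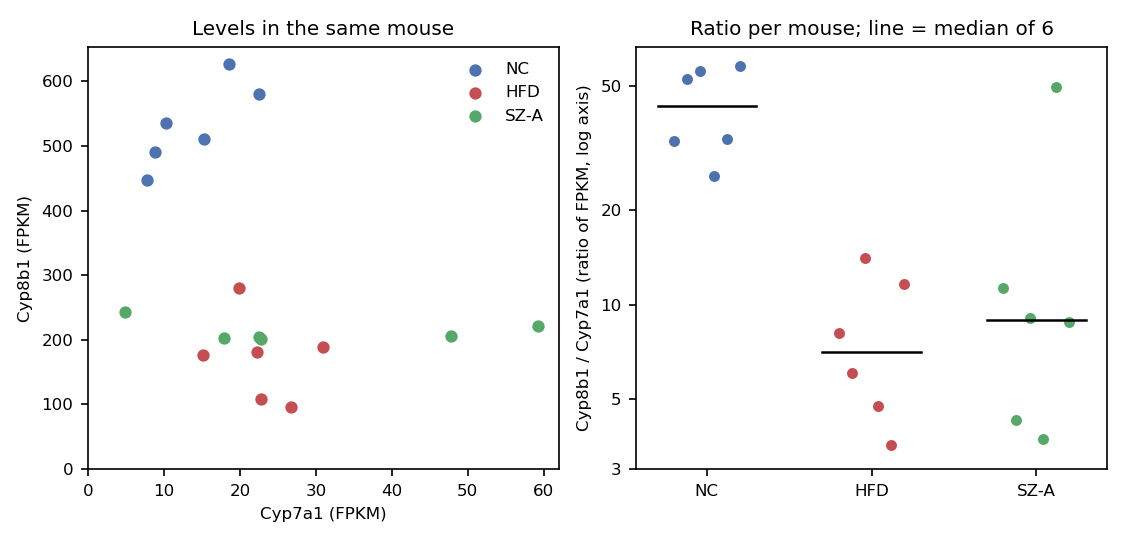
Left, Cyp8b1 against Cyp7a1 in FPKM for each of 18 mice. Right, the ratio Cyp8b1 over Cyp7a1 in each mouse on a log axis, with the median of 6 mice as a line. NC mice lie at ratios of 25.8 to 57.7, HFD mice at 3.58 to 14.1, and 5 of 6 SZ-A mice among or near the HFD mice.

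The alternative pathway did not pass the test between HFD and NC. Cyp27a1, the mitochondrial sterol side-chain hydroxylase, was 175 ± 38.2 FPKM in NC and 146 ± 20.4 in HFD (log2 fold change -0.26, limma adjusted p = 0.203), with 6 of 6 HFD mice below the NC mean and overlapping ranges. Without NC6 the log2 fold change was -0.27. NC5 held the highest value, 247 FPKM. With a common sum per mouse the means of Cyp27a1 were 167 FPKM in NC and 159 in HFD, so the size of this difference rested in part on the scaling. Cyp7b1, the oxysterol hydroxylase of this pathway, was 69.7 ± 20.8 FPKM in NC and 53.3 ± 29.4 in HFD (log2 fold change -0.52, 95% interval -1.27 to 0.22, adjusted p = 0.308). The HFD mice spanned 22.6 to 100.3 FPKM, which takes in all NC mice but NC6. Without NC6 the log2 fold change of Cyp7b1 was -0.41 (limma adjusted p = 0.461).

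Akr1d1, the reductase that sets the shape of the steroid ring in later steps, ranged from 16.7 to 44.6 FPKM in NC mice (median 31.7) and from 33.8 to 73.1 in HFD mice (median 52.6). HFD6 was the single HFD mouse within the NC range. The log2 fold change was 0.78 (SE 0.23, limma adjusted p = 0.0306), and without NC6 it was 0.79 (adjusted p = 0.0432). The call was lost without NC3, NC4, HFD1, HFD3, HFD4 or HFD5, with adjusted p of 0.0507 to 0.0642 and a log2 fold change of 0.69 to 0.79. An intron of Akr1d1 holds the pseudogene Gm7463, which shares no exon base with it and averaged 3.56 FPKM.

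Hsd3b7, the dehydrogenase that acts right after Cyp7a1 and Cyp7b1, is listed at 0 to 12 fragments per mouse. Its exons overlap those of Gm49388 on the same strand over 62.0% of their bases and those of the antisense gene 9430064I24Rik over 62.4%, and together these cover 99.2%. Gm49388 is listed at 0 and 9430064I24Rik averaged 0.016 FPKM. Reads on shared bases may not have been assigned to any gene, so the listed level cannot be read as the expression of Hsd3b7.

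Of the conjugating enzymes, Slc27a5, the bile acid coenzyme A ligase, was 356 ± 23.0 FPKM in NC and 364 ± 42.8 in HFD (log2 fold change 0.025, 95% interval -0.16 to 0.21). Baat, which adds taurine or glycine, was 145 ± 11.2 and 127 ± 8.92 FPKM (log2 fold change -0.19, adjusted p = 0.0947), with 6 of 6 HFD mice below the NC mean. On the scale of a common sum per mouse the Baat difference was 0.0068, so its direction rested on the scaling. Without NC6 the log2 fold changes were 0.033 for Slc27a5 and -0.20 for Baat.

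The receptor pair was not called. Nr1h4 (FXR) was 46.0 ± 7.92 FPKM in NC and 50.1 ± 6.08 in HFD (log2 fold change 0.13, 95% interval -0.12 to 0.39). Nr0b2 (SHP) ranged from 5.73 FPKM in NC5 to 75.4 in NC1 (median 26.4), and from 22.5 to 36.8 in HFD mice (median 25.2). The HFD range lay inside the NC range. Its log2 fold change was 0.077 with a 95% interval of -0.94 to 1.10, which leaves room for a fold of 0.521 to 2.14, so a change of moderate size in SHP was not detectable in these mice. Without NC6 the log2 fold changes were 0.29 for Nr0b2 and 0.080 for Nr1h4.

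**Figure D3:**
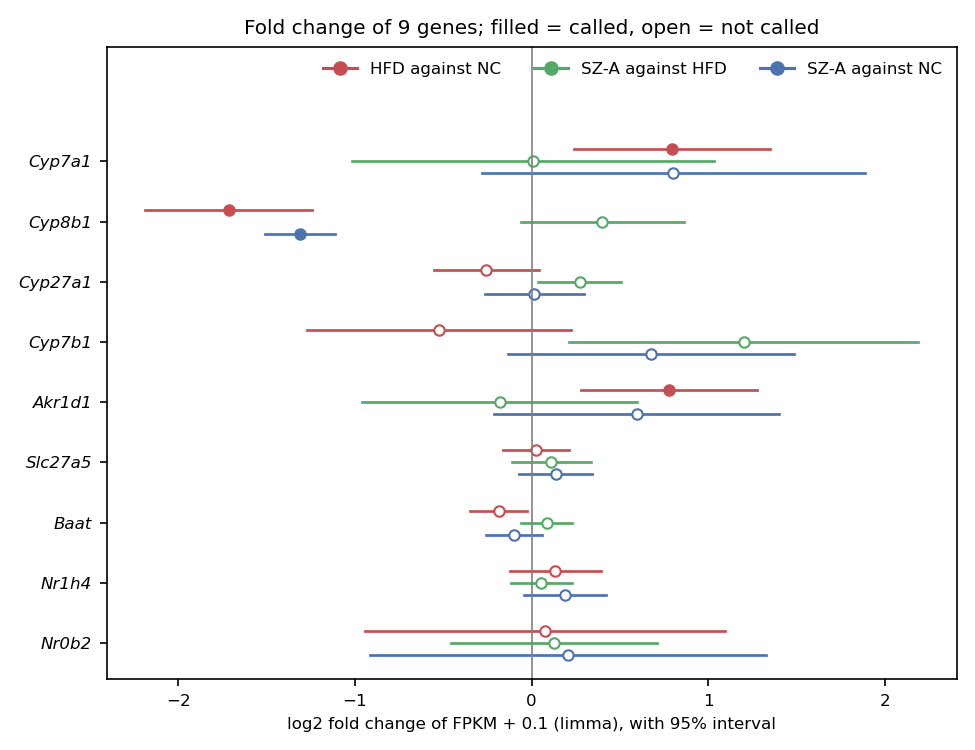
Log2 fold change of FPKM + 0.1 with its 95% interval from limma for the 9 tested genes in 3 comparisons. Filled points were called. Cyp8b1 is the single gene called lower, at -1.71 in HFD against NC and -1.31 in SZ-A against NC, and Cyp7b1 has the highest value of SZ-A against HFD, 1.2, which was not called.

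Other marks of the liver moved between NC and HFD as well. Of 10 macrophage markers 5 were called higher, beside 10.7% of all genes, and their summed level was 186 to 311 FPKM in NC and 320 to 478 in HFD. Of 10 stellate cell markers 6 were called higher (85.2 to 121 and 112 to 173 FPKM). Of 9 hepatocyte markers 4 were called lower, beside 9.49% of all genes, with a sum of 44229 to 62622 FPKM in NC and 29676 to 48805 in HFD. Without NC6 these 3 counts were 5, 6 and 4. All 9 hepatocyte markers were present in every group. Of 6 adipocyte markers, summing to 32.9 to 115 FPKM in NC and 51.8 to 161 in HFD, Plin1, Lep and Retn averaged below 0.1 FPKM and 2 were tested. Of these Cfd, which encodes adipsin, was called higher, at 0 to 7.47 FPKM in NC and 19.4 to 135 in HFD. Cidec was not called and went the other way (log2 fold change -0.76, limma adjusted p = 0.128), with 6 of 6 HFD mice below the NC mean. Of 6 intestinal markers, summing to 103 to 146 FPKM in NC and 104 to 158 in HFD, Vil1, Cdx2, Lct and Fgf15 averaged below 0.1 FPKM and 2 were tested. Fabp2, which made up most of that sum, was not called, and Slc10a2, a bile acid transporter also known from bile ducts, was called higher (log2 fold change 1.27, limma adjusted p = 0.0468), a call lost without NC6. Of 14 clock genes tested, some of which drive daily rhythms of bile acid enzymes, 4 were called higher and 1, Clock, lower, beside 10.7% and 9.49% of all genes, with a median log2 fold change of 0.52. Without NC6 the counts were 3 and 0, and with a common sum per mouse 7 and 0. Dbp was 7.42 ± 5.49 FPKM in NC and 24.8 ± 4.72 in HFD (log2 fold change 2.17, adjusted p = 0.00991), Per3 rose by 1.95 and Cry2 by 0.43. Fewer cells of a type and less RNA per cell cannot be told apart in whole liver, and the part of these markers and of the clock genes in the results on Cyp7a1, Cyp8b1 and Akr1d1 was not tested.

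SZ-A was then compared with the HFD controls, which shares the HFD mice with the comparison above. None of the 9 genes was called in limma or with voom, beside 0.147% of all genes tested in limma, or 15 genes. The study's own DESeq2 test, at the same thresholds, reported many more genes between these groups. Its text names none of the 9 genes, so their result in that test is not known here. At an unadjusted p under 0.05 with a fold change over 1.2, a threshold chosen after the data were seen, 2 passed, Cyp7b1 and Cyp27a1, beside 9.03% of all genes. The ranges of the groups overlapped for each of the 9 genes, and 1.28% of all genes had ranges that did not. The summed level of the macrophage markers was 273 to 391 FPKM in SZ-A mice, with Cd68 called lower and the other 9 not called, and none of the stellate, hepatocyte or clock genes was called. These calls depended on the scale. With a common sum per mouse 3 macrophage and 2 stellate markers were called lower and 1 hepatocyte marker higher, but no clock gene. On that scale 206 of all 10216 genes were called lower and 10 higher. Of the clock genes the smallest p-values were those of Bhlhe40 (log2 fold change 0.40, limma adjusted p = 0.416), Per1 (0.54, adjusted p = 0.467) and Per2 (0.48, adjusted p = 0.542).

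Cyp7b1 lay between 22.6 and 100.3 FPKM in HFD mice, with a median of 52.6, and between 49.3 and 283 FPKM in SZ-A mice, with a median of 118. The highest was SZ-A5, and 5 of 6 SZ-A mice were above the HFD mean. The log2 fold change was 1.2 with a 95% interval of 0.21 to 2.19 (limma adjusted p = 0.243), and 0.92 without SZ-A5. Cyp27a1 was 146 ± 20.4 FPKM in HFD and 175 ± 21.2 in SZ-A, with 6 of 6 SZ-A mice above the HFD mean (log2 fold change 0.27, limma adjusted p = 0.267). On the scale of a common sum per mouse, on which the median of all genes is -0.15, the value of Cyp27a1 was 0.093 and that of Cyp7b1 was 1.02.

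Cyp8b1 lay between 201 and 243 FPKM in SZ-A mice, with a median of 205, and 6 of 6 were above the HFD mean of 172. The SZ-A range lay within that of the HFD mice, whose HFD3 reached 281 FPKM. The log2 fold change was 0.40 with a 95% interval of -0.062 to 0.86 (limma adjusted p = 0.408). The spread was narrow in SZ-A, with a coefficient of variation of 7.69%, beside 38.7% in HFD and 12.1% in NC mice.

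Cyp7a1 showed the reverse, a wide spread in SZ-A. It ranged from 4.91 FPKM in SZ-A5 to 59.3 in SZ-A4 (median 22.7), with SZ-A2 second at 47.8, and these outer values took in the whole HFD range of 15.1 to 30.9. The means were 29.2 ± 20.3 and 22.9 ± 5.46 FPKM, while the log2 fold change was 0.0065 with a 95% interval of -1.02 to 1.03, since the mean of logs gives SZ-A5 more weight. Akr1d1 also spread widely, from 14.4 FPKM in SZ-A5 to 78.8 in SZ-A2 (median 54.6), with a log2 fold change of -0.18 (95% interval -0.96 to 0.60).

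SZ-A5 stood apart in several of these genes. It had the lowest Cyp7a1, Akr1d1, Cyp27a1 and Slc27a5 and the highest Cyp7b1, Cyp8b1 and Baat of the SZ-A mice. Its Dbp was 7.22 FPKM where the group median was 34.6, and its Per3 and Cry2 were the lowest of the group too. NC5 had the lowest Dbp of the NC mice, at 0.99 FPKM, with the lowest Nr0b2, Akr1d1 and Cyp7b1 and the highest Cyp8b1 and Cyp27a1. It also had the highest Slc27a5 and Nr1h4 of the NC mice, and its Cyp7a1, at 18.6 FPKM, was above the NC median. Cyp7a1, Cyp7b1, Cyp27a1, Slc27a5, Nr1h4 and Baat lay on opposite sides of their group medians in NC5 and SZ-A5. Akr1d1, Cyp8b1 and Nr0b2 lay on the same side. The part of the clock genes in these values was not tested.

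The conjugating enzymes and receptors were not called. Slc27a5 was 394 ± 49.0 FPKM in SZ-A (log2 fold change 0.11, 95% interval -0.11 to 0.33) and Baat 135 ± 8.40 (0.086, -0.058 to 0.23). Nr1h4 was 51.8 ± 3.05 FPKM (0.055, -0.12 to 0.23), with 4 of 6 SZ-A mice above the HFD mean. Nr0b2 lay between 19.0 and 53.7 FPKM in SZ-A mice, with a median of 29.7, and had a log2 fold change of 0.13 with a 95% interval of -0.46 to 0.71. On the scale of a common sum per mouse all 4 of these differences were below 0, as was the median of all genes.

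SZ-A mice were also compared with NC, which shares the NC mice with the first comparison and the SZ-A mice with the second. Of the 9 genes 1, Cyp8b1, was called, beside 9.60% of all genes tested. It was lower, beside 4.30% of all genes, and none was higher, beside 5.31%. It was also the single gene whose groups did not overlap, beside 5.50%. Cyp8b1 was 213 ± 16.4 FPKM in SZ-A and 532 ± 64.4 in NC (SD, n = 6). The highest SZ-A mouse, at 243 FPKM, was far below the lowest NC mouse, at 447. The log2 fold change was -1.31 (SE 0.092, limma adjusted p = 2.19e-05), or 0.402 times the NC level, and its p-value was the smallest of all 10216 genes. Without NC6 it was -1.36, with an adjusted p of 2.7e-05. Cyp7a1 and Akr1d1 were not called (log2 fold change 0.80 and 0.60, adjusted p = 0.344 and 0.345, or 0.66 and 0.61 without NC6). Without SZ-A5 their log2 fold changes were 1.24 and 0.93, and both were called (adjusted p = 0.0434 and 0.0305). Of the 14 clock genes 5 were called higher and 1 lower than in NC, beside 5.31% and 4.30% of all genes, and 4 and 0 without NC6. Bhlhe40 (log2 fold change 1.64) did not overlap between the groups, while Per2 (1.36) and Cry2 (0.58, limma adjusted p = 0.0202) did.

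Whether SHP and the enzymes moved together from mouse to mouse was asked with deviations from the group mean. Over 18 mice, Nr0b2 correlated with Cyp7a1 at r = -0.042 (Spearman rho = -0.21), with Cyp8b1 at r = -0.095 (rho = -0.17), with Cyp7b1 at r = 0.11 (rho = 0.073), with Cyp27a1 at r = -0.11 (rho = 0.34) and with Nr1h4 at r = -0.11 (rho = 0.11). The permutation p-values, adjusted over the 5 relations, were all 0.87 for r, and none of the relations passed. The r of Nr0b2 and Cyp8b1 was -0.81 among the NC mice alone, 0.60 among the HFD mice and -0.17 among the SZ-A mice. Without NC5 and NC1, the mice farthest from the median of Nr0b2, its r with Cyp27a1 was 0.60 (adjusted permutation p = 0.0236), so that relation rested on which mice entered.

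Of all 36 pairs among the 9 genes, a set of relations added after the data were seen, 1 passed. Cyp7a1 and Cyp7b1, the hydroxylases of the classic and the alternative pathway, ran against each other, with r = -0.74 (permutation p = 0.00104, adjusted over 36 pairs 0.0374) and rho = -0.69 (p = 0.00313, adjusted 0.113). The rank measure did not pass the adjustment. The r was -0.54 among the NC mice alone, -0.44 among the HFD mice and -0.97 among the SZ-A mice. Without SZ-A5 and SZ-A4, the mice farthest out for Cyp7a1, r was -0.57 (permutation p = 0.0186), so the size rested in part on them and the direction did not. Cyp27a1 and Nr1h4 had r = 0.67 (adjusted permutation p = 0.14).

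**Figure D4:**
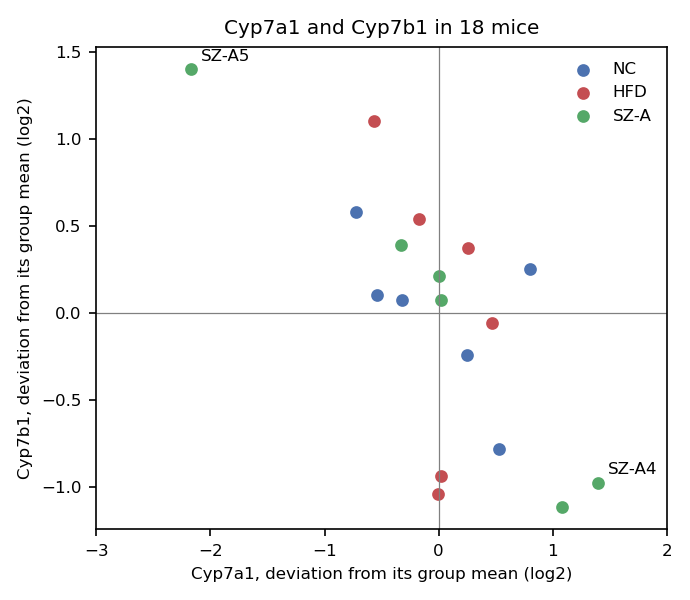
Deviation of Cyp7b1 from its group mean against that of Cyp7a1, on the log2 scale, for 18 mice coloured by group. Points run from the upper left, where SZ-A5 lies, to the lower right, with SZ-A4, and r over all 18 is -0.74.

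The genes whose pattern over the 18 mice was most like that of 4 of the genes were found by the same measure among all 10216 genes, as a description. Nearest to Cyp7a1 were Spc24 (r = 0.83, rho = 0.62), Gpt (0.81, 0.76) and Zfp276 (0.80, 0.68). Nearest to Cyp8b1 were AU022252 (0.84, 0.68), Plekhg5 (0.84, 0.87) and Pde9a (0.82, 0.70). Cyp7b1 had closer neighbours, the receptor gene Egfr (0.93, 0.94), the complement gene C6 (0.91, 0.91) and Tmem140 (0.87, 0.82). Nearest to Nr0b2 were Kmt2e, Ptprk and Necab1, each at r = 0.85, with rho of 0.65, 0.66 and 0.71. Plekhg5 and Tmem140 were low, with group means of 0.994 to 1.45 and 0.758 to 1.26 FPKM.

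The other genes of the pathway were taken as 3 lists. Of 19 other genes of bile acid synthesis, 17 were tested, and 4 were called higher in HFD than in NC and none lower, beside 10.7% and 9.49% of all genes, with a median log2 fold change of -0.040 beside -0.033 for all genes. Without NC6 the same 4 were called higher and Acot8 was called lower. Cyp2c70, which makes the muricholic acids of mice, was 23.2 ± 15.3 FPKM in NC and 58.2 ± 29.4 in HFD, without overlap (log2 fold change 1.55, limma adjusted p = 0.0305). Akr1c14, a steroid dehydrogenase, rose from 51.1 ± 13.9 to 105 ± 29.7 FPKM (1.05, adjusted p = 0.00732), and Fdx1, the electron donor of mitochondrial cytochromes such as Cyp27a1, from 21.4 ± 2.20 to 31.2 ± 5.30 (0.53, adjusted p = 0.00501). Cyp46a1, a cholesterol hydroxylase best known from the brain, rose by 1.14 at a low level of 0.777 to 1.83 FPKM. In SZ-A against HFD none of the 17 was called, and the smallest p-values were those of the transporter Slc27a2 (0.24, adjusted p = 0.165), of Scp2, a peroxisomal thiolase and sterol carrier (0.21, adjusted p = 0.28), and of Amacr (0.24, adjusted p = 0.308). Against NC, Cyp2c70, Akr1c14 and Fdx1 were called higher in SZ-A mice as well (1.70, 1.13 and 0.54), also without NC6.

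Of 14 regulators, 2 were called lower in HFD than in NC, beside 9.49% of all genes, and none higher, beside 10.7%, with a median log2 fold change of -0.16. Without NC6, and with a common sum per mouse, Insig2 alone was called. Insig2, which holds back sterol synthesis, fell from 220 ± 137 to 71.5 ± 22.4 FPKM without overlap (-1.50, limma adjusted p = 0.00325). Klb, the co-receptor for the gut hormone FGF15, fell from 8.98 ± 1.34 to 6.70 ± 1.12 FPKM (-0.42, adjusted p = 0.0292), and Fgf15 itself was listed at 0 in the liver of every mouse. The partners that SHP works through were not called. Nr5a2 was 11.1 ± 1.47 FPKM in NC and 9.43 ± 0.929 in HFD (-0.22, adjusted p = 0.148), and Hnf4a, named here for its motif and after its values were seen, was 184 ± 42.1 and 153 ± 44.8 FPKM (-0.28, adjusted p = 0.346). In SZ-A against HFD none of the 14 was called. Nr1i2, the receptor PXR, had the smallest p-value there (0.33, adjusted p = 0.299), followed by Nr1h3, the receptor LXR alpha (0.086, adjusted p = 0.527), and Nr5a2 (0.11, adjusted p = 0.542). Insig2 was called lower in SZ-A than in NC too (-1.45, adjusted p = 0.0155), also without NC6.

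Of 11 FXR targets of transport and lipid handling, 8 were tested, and 5 were called lower in HFD than in NC beside 9.49% of all genes, and none higher, with a median log2 fold change of -0.37. The list was not split by the direction in which FXR acts on each gene, so FXR activity was not tested by these counts. Without NC6 the same 5 were called lower and Abcb11 higher. With a common sum per mouse 2 were called lower, Abcb4 and Apoc2, and Abcb11 higher, with a median of -0.18 beside 0.15 for all genes. Abcb4, the phospholipid pump of bile, fell from 70.8 ± 9.22 to 46.3 ± 5.24 FPKM without overlap (-0.61, limma adjusted p = 0.00159). Apoc2 fell by 1.56 and Sdc1 by 0.49 on the log2 scale, also without overlap. Slc10a1, the NTCP transporter that brings bile acids into hepatocytes, fell from 250 ± 43.6 to 188 ± 31.3 FPKM (-0.41, adjusted p = 0.0429), and Fetub by 0.34 (adjusted p = 0.0306). Abcb11, the bile salt export pump and a defining target of FXR, was 53.2 ± 11.4 and 67.4 ± 9.73 FPKM (0.36, adjusted p = 0.0898). Fetub had the smallest p-value of the list in SZ-A against HFD, from 187 ± 27.1 to 264 ± 16.4 FPKM without overlap, and just missed the threshold (0.51, adjusted p = 0.0557). With a common sum per mouse Fetub was called. Slc10a1 was next, at 271 ± 43.4 FPKM in SZ-A (0.53, adjusted p = 0.1), then Abcb4 (0.22, adjusted p = 0.355). Abcb4, Apoc2 and Sdc1 were called lower in SZ-A than in NC (-0.39, -0.96 and -0.54), and without NC6 Sdc1 was called lower and Abcb11 higher.

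**Figure D5:**
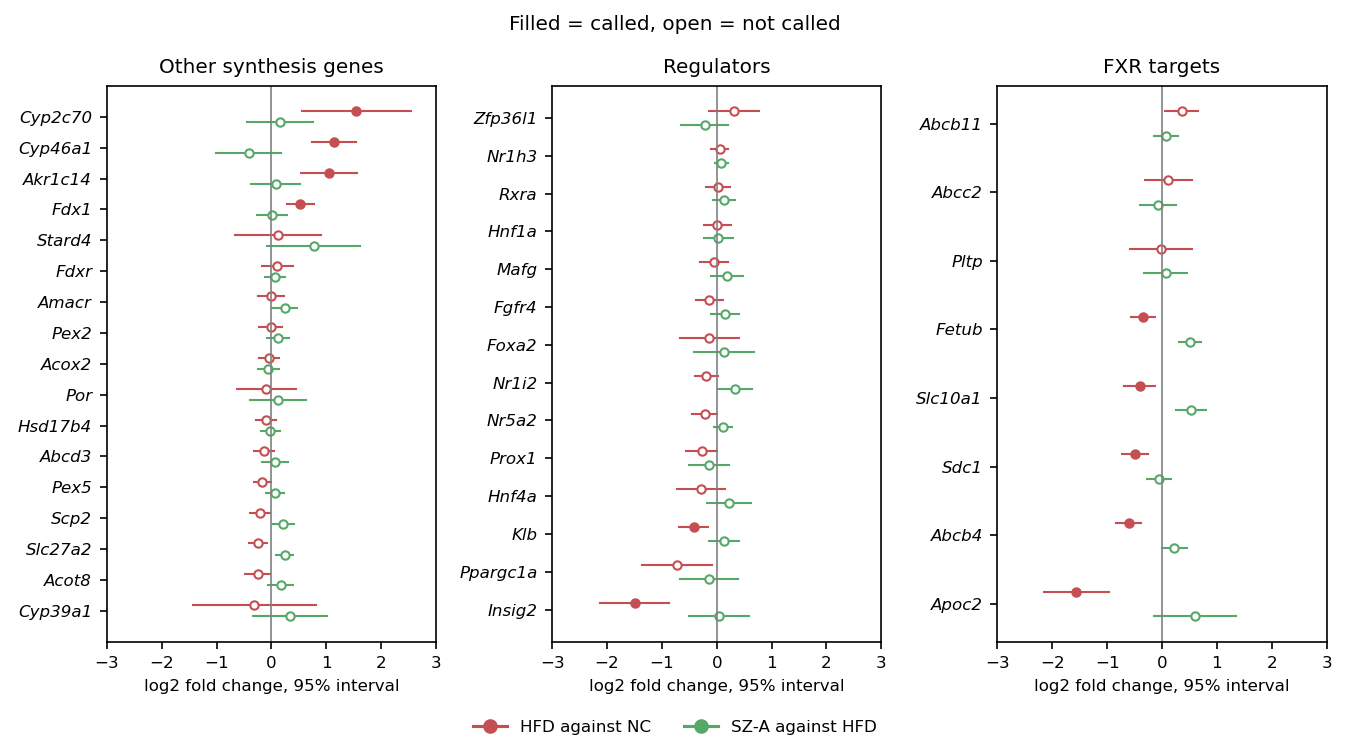
Log2 fold change with its 95% interval for the tested genes of 3 related lists, in HFD against NC and SZ-A against HFD. Filled points were called, which are 11 in HFD against NC and none in SZ-A against HFD. The 4 called synthesis genes lie to the right of 0, and the called regulators and FXR targets to the left.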

How the data were processed

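Poly-A RNA of 18 livers was sequenced as paired-end reads. The submitters' processing notes name HISAT2 2.0.5, featureCounts 1.5.0-p3 and mm10. The authors deposited 1 table of FPKM for 54532 genes with no filter on low values. Whether counting used strand is not given in the sources used here. FPKM times gene length gave whole fragments, within 0.05 of a fragment, for 100% of the values checked. Genes with no fragments and those with the most fragments were not checked. The depth is the sum of the fragments of all genes. The DESeq2 test of the study needs counts and was not repeated.

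Differences were tested in R 4.3.3 with limma 3.58.1 (lmFit, eBayes with trend) on log2(FPKM + 0.1), a scale that understates changes of low genes, for genes with a mean of at least 1 FPKM. Each fit held the 2 groups compared and no covariate, with Benjamini-Hochberg adjustment over all 10216 genes. Genes with a fold change over 1.2 and an adjusted p under 0.05 were called. Correlations used two-sided permutation tests with 100000 shuffles of mice within groups (Python 3.11.15, numpy 2.4.6, scipy 1.17.1). Replicate numbers pair no mice. Scripts were tested on simulated data. The members and lists were chosen with earlier results of these data known. Named are all 10 genes, genes of 3 related lists called in any comparison or otherwise the 3 with the smallest p, the 3 clock genes with the smallest p per comparison, and the 3 genes most like each of 4 members. Hnf4a, Abcb11, Acot8, Clock, Cd68, Cfd, Cidec, Fabp2 and Slc10a2 were named after their values were seen.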

Additional observations from a re-analysis of the deposited data

Results flagged for a closer look

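Of the 27 sets of 6 mice, a gene in a group, 1 held a mouse set apart from the other 5. Slc27a5 was 303 FPKM in SZ-A5, where the other SZ-A mice had 394 to 452 FPKM, a gap of 0.653 of the range, past Dixon's 95% critical value for 6 samples. Chance alone flags about 1 in 20 such sets. SZ-A5 also had the lowest Cyp7a1 and the highest Cyp7b1 of its group.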

How the results depend on the processing

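Of 675 refits of the 27 log2 fold changes, 624 kept the direction and the side of the threshold, 20 lost a call, 2 gained one and 29 turned direction. Cyp8b1 was called in all 25 alternatives of HFD against NC (-1.87 to -1.52) and of SZ-A against NC (-1.36 to -1.26). The number of genes called in HFD against NC was 1 when no gene was filtered out, 1 in a single fit of all 18 mice and 1 to 3 when a mouse was left out. Cyp7a1 lost its call in 11 of 25 alternatives (adjusted p up to 0.202), with no filter, with one fit, and without NC1, NC2, NC3, NC6 or any of HFD1 to HFD5. Akr1d1 lost it in 9 of 25 (up to 0.103), with no filter, one fit, the block, and without NC3, NC4, HFD1, HFD3, HFD4 or HFD5. The cause was not tested. In SZ-A against HFD the number was 0 in 25 alternatives and 2 at an unadjusted p under 0.05. In SZ-A against NC it was 1 to 3 when a mouse was left out, with 3 without SZ-A5.

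The replicate block was fitted although same-numbered mice did not deviate together (correlations -0.117 to 0.292, 3 of 18 pairs over 0.1). With the block 2 genes were called in HFD against NC, Cyp7a1 and Cyp8b1, none in SZ-A against HFD and 1 in SZ-A against NC. Over all genes the block gave 1647 calls in HFD against NC and none in SZ-A against HFD.

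Values near 0 turned direction. With a common sum per mouse these were Baat in HFD against NC (0.0068) and, in SZ-A against HFD, Cyp7a1 (-0.17), Nr0b2 (-0.051), Nr1h4 (-0.12), Baat (-0.093) and Slc27a5 (-0.067). With voom on library totals they were Cyp7a1 (-0.11), Nr1h4 (-0.058), Baat (-0.028) and Slc27a5 (-0.0022) in SZ-A against HFD, and with voom on median-ratio sizes Cyp7a1 (-0.020). With sample weights it was Nr0b2 in HFD against NC (-0.10). The mean of Baat in HFD was 139 FPKM with a common sum. When a mouse was left out, the values in HFD against NC ran from -0.36 to 0.38 for Nr0b2 and from -0.035 to 0.055 for Slc27a5. Those in SZ-A against HFD ran from -0.27 to 0.44 for Cyp7a1, -0.038 to 0.26 for Nr0b2 and -0.33 to 0.16 for Akr1d1. Those in SZ-A against NC ran from -0.043 to 0.12 for Cyp27a1 and -0.23 to 0.51 for Nr0b2.

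Correlations of Nr0b2 also turned sign. Without NC5 and NC1 r was 0.072 with Cyp7a1, 0.082 with Cyp8b1, -0.074 with Cyp7b1, 0.60 with Cyp27a1 and 0.13 with Nr1h4. With a common sum it was 0.0087, 0.050, 0.070 and 0.14 with Cyp7a1, Cyp8b1, Cyp27a1 and Nr1h4, and without NC6 0.046 with Cyp7a1 and 0.038 with Nr1h4.

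Over all genes, calls in SZ-A against HFD were 8 higher and 7 lower, but 10 and 206 with a common sum, 12 and 56 with voom on library totals, and 233 in all with sample weights. In HFD against NC voom on library totals gave 2010 higher and 409 lower. FPKM carries no absolute scale.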
